A study of Glycine max with 12 samples.

Results

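The comparison described here sets the transcript response of soybean leaves to L-azetidine-2-carboxylic acid (AZC) against their response to tunicamycin (TUN). It was read as the AZC response (log2 AZC over water) minus the TUN response (log2 TUN over DMSO), so that a positive difference means higher under AZC. The difference is taken over 8 of the 12 hybridizations of the series, 4 with AZC and 4 with TUN, which are all the hybridizations labelled with either agent. They come from 2 biological replicates of each treatment, each hybridized in both dye orientations, and every array held treated and control RNA together. AZC plants received 50 mM AZC for 16 h and their controls water, whereas TUN plants received 10 μg/ml TUN for 24 h and their controls DMSO. Agent, dose, time and solvent therefore changed together and their parts in a difference cannot be told apart. The remaining hybridizations of the series compared plants given 10% polyethylene glycol (PEG) for 16 h with water controls. They entered the model only for the spread of each clone and its trend on intensity, and so bear on every standard error and call. The plants were 3-week-old soybeans of the cultivar Dare, cut below the cotyledons and placed in the solutions, and the RNA came from the first trifoliate leaves. The labels do not say whether a replicate pooled several plants. The arrays held cDNA clones from developing seeds, so leaf transcripts that seeds lack were outside their reach.

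Both agents are used to load the endoplasmic reticulum (ER) with misfolded protein, which switches on the unfolded protein response, a transcriptional programme that raises ER chaperones and the machinery that degrades misfolded proteins. TUN blocks the first step of N-glycan assembly, so that glycoproteins entering the ER lack the sugar chains that help them fold. AZC is a proline analog that is built into proteins in the place of proline, and it can disturb folding in the cytosol and organelles as well as in the ER.

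Of 5760 spots, 4368 clones had a value in both dye orientations of every AZC and TUN replicate and were tested, 189 of them with a gene symbol in the platform's annotation. Over the 4368 clones the replicate values correlated at r = 0.900 between the AZC replicates and at r = 0.737 between the TUN replicates, against 0.597 to 0.723 between an AZC and a TUN replicate. These are correlations across clones, which are not independent. Dye-swap pairs correlated at r = 0.884 and 0.837 in AZC replicates 1 and 2, and at 0.824 and 0.627 in TUN replicates 1 and 2. All 5760 spots passed the filter on background, so detection could not serve to check the labelled tissue against leaf markers. Of the seed markers, 0 of 11 tested clones were called for the difference (1.58% over all clones).

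Of the 4368 clones, 69 were called as different between AZC and TUN. With PEG left out of the fit 43 were called, 42 of them among the 69. With limma and a Benjamini-Hochberg adjusted p under 0.05, 27 clones were higher under AZC than under TUN (0.618% of those tested) and 42 were lower (0.962%). At an unadjusted p under 0.05 there were 196 higher and 239 lower. For the treatments singly, AZC raised 151 clones (3.46%) and lowered 177 (4.05%), and TUN raised 173 (3.96%) and lowered 147 (3.37%). The 72 clones raised by both made up 47.7% of those raised by AZC and 41.6% of those raised by TUN. The 100 clones lowered by both made up 56.5% of those lowered by AZC and 68.0% of those lowered by TUN, and 0 clones were called in opposite directions. The count of clones lower under AZC depended on single replicates. It was 12 without AZC replicate 1, 14 without AZC replicate 2, 23 without TUN replicate 1 and 62 without TUN replicate 2, whereas the count of higher clones ran from 18 to 25 when any replicate was left out.

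**Figure D1:**
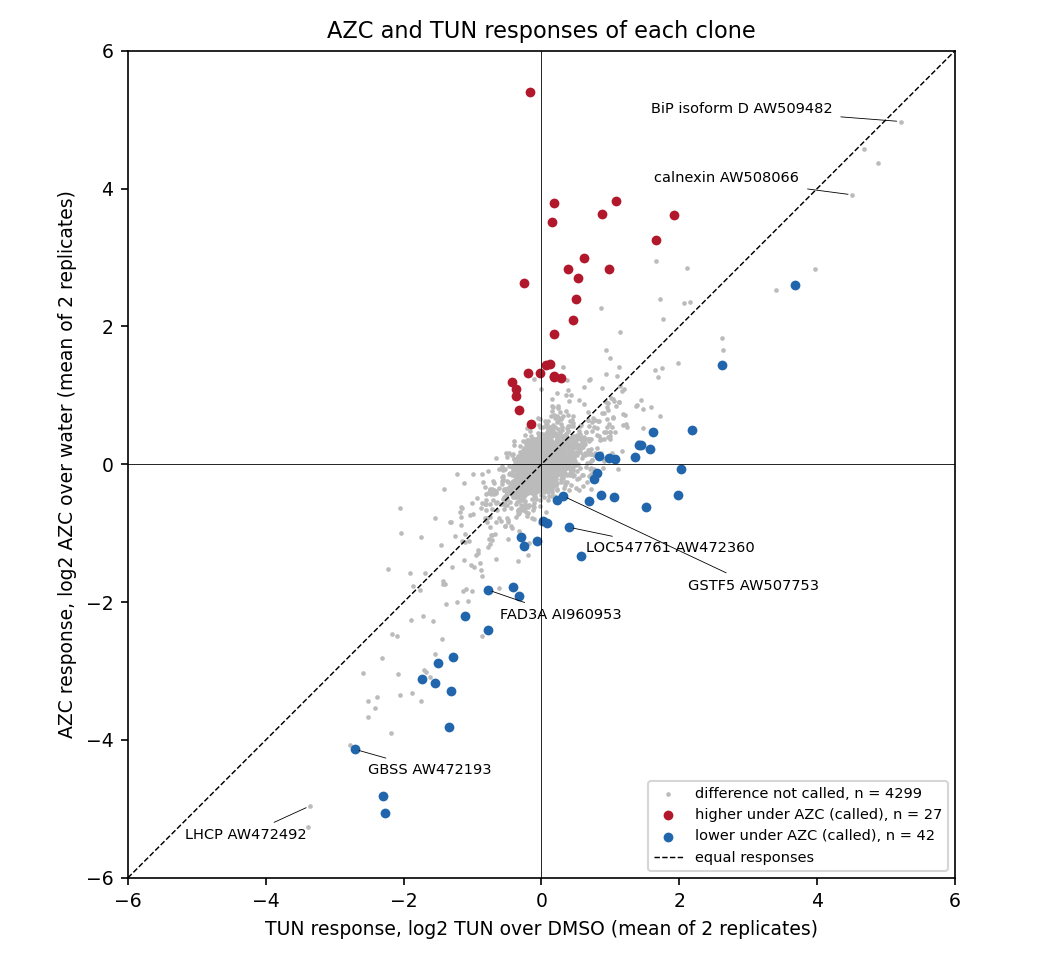
AZC response (vertical axis) against TUN response (horizontal axis) of the 4368 clones tested, each the mean log2 ratio of treated over control of 2 biological replicates. Red points are the 27 clones higher under AZC, blue points the 42 lower, grey points the rest, and the dashed line marks equal responses. The red points rise near the line of no TUN response, and the chlorophyll a/b-binding protein (LHCP), granule-bound starch synthase (GBSS), BiP and calnexin clones are labelled.

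The clones that were higher under AZC were mostly ones that TUN left without a call. All 27 were called as raised by AZC, and only 6 of them were also raised by TUN. Their median response was 2.09 under AZC, against 0.18 under TUN, on the log2 scale. In 25 of the 27 the difference was more than 2-fold, and the differences ran from 0.73 to 5.56 with a median of 1.64. None of the 27 carries a gene symbol. The clone at spot 4210 stood farthest apart, with log2 ratios of 5.34 and 5.47 in the AZC replicates, against −0.17 and −0.16 in the TUN replicates. This was 42.3-fold over water under AZC and 0.893-fold over DMSO under TUN (difference 5.56, standard error 0.15, limma adjusted p = 2.33e-06). The clone at spot 3750 had 4.04 and 3.53 under AZC and 0.21 and 0.15 under TUN (difference 3.61, standard error 0.20, limma adjusted p = 0.000304). The replicates did not overlap for either clone. Lack of overlap between 2 and 2 replicates was common, with AZC above TUN in 24.5% of all clones tested and below it in 18.6%.

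The 42 clones that were lower under AZC had several histories. TUN raised 17 of them while AZC gave no call, AZC lowered 11 while TUN gave no call, both lowered 12 with the deeper fall under AZC, and both raised 2 with the larger rise under TUN. Their median response was −0.72 under AZC, against 0.36 under TUN, and 13 had negative values in both AZC replicates and positive values in both TUN replicates. Differences ran from −2.79 to −0.71. At spot 5547, the lowest, the log2 ratios were −4.95 and −5.16 under AZC and −1.38 and −3.16 under TUN (difference −2.79, standard error 0.44, limma adjusted p = 0.0171). That was 33.3-fold below water and 4.83-fold below DMSO, which matches the paper's folds for a photosystem I reaction center subunit III clone. At spot 1580 the log2 ratios were −4.51 and −5.12 under AZC and −1.42 and −3.19 under TUN (difference −2.51, standard error 0.46, limma adjusted p = 0.0357). That was 28.2-fold below water and 4.94-fold below DMSO, which matches the paper's folds for a selenium binding protein clone. In 9 of the 12 clones lowered by both, TUN replicate 1 lay above TUN replicate 2, and in the others it lay below. Over all 100 clones lowered by both, 75 had the lower value under AZC and the median was −1.53 under AZC, against −1.13 under TUN. Over the 72 raised by both, 51 had the lower value under AZC and the median was 0.95 under AZC, against 1.12 under TUN.

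**Figure D2:**
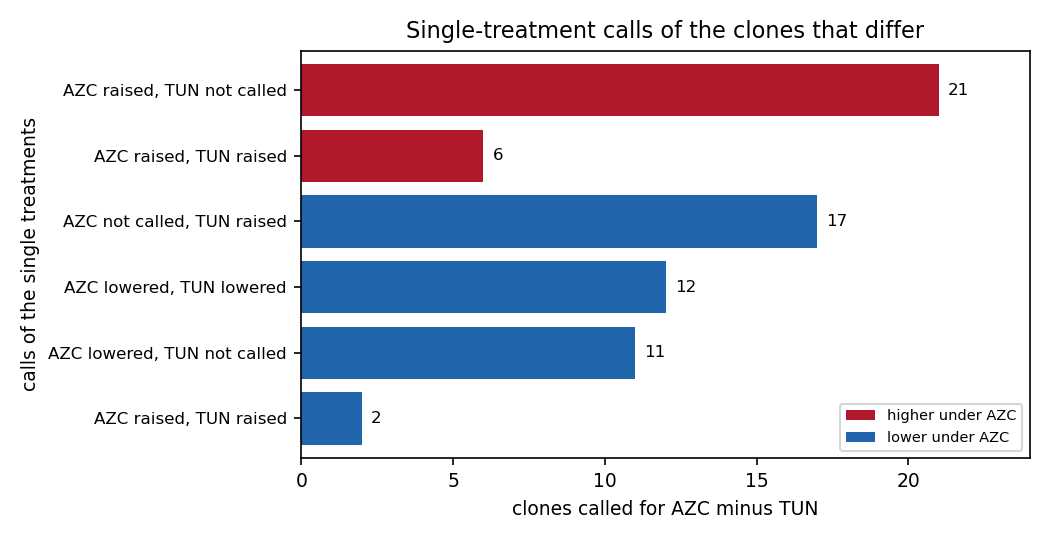
Number of clones called for AZC minus TUN (horizontal axis), by what each treatment did on its own (vertical axis). Red bars are clones higher under AZC and blue bars clones lower; the longest bar holds the 21 clones that AZC raised and TUN left without a call.

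Among the clones with a gene symbol, 6 of 189 tested were called for the difference, all lower under AZC. That is 3.17%, against 1.58% over all clones tested in both directions together. They were a granule-bound starch synthase clone, 3 clones of fatty acid desaturases, a glutathione S-transferase and a clone of LOC547761.

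3 clones of fatty acid desaturases were lower under AZC than under TUN. AZC lowered all 3, and TUN lowered 1 and gave the other two no call. FAD2-3 encodes an omega-6 desaturase, which turns oleate into linoleate, and FAD3A a microsomal omega-3 desaturase, which turns linoleate into linolenate. FAD2-3 clone AW100780 had log2 ratios of −0.91 and −0.81 in the AZC replicates and of 0.04 and 0.11 in the TUN replicates. The difference was −0.93 (standard error 0.18, limma adjusted p = 0.0432). The other FAD2-3 clone, AW471558, had −0.76 and −0.88 under AZC and 0.02 and 0.03 under TUN, a difference of −0.84 (standard error 0.14, limma adjusted p = 0.0257). Clones of 1 gene are not independent of each other, and near-identical FAD2 copies can share signal on a cDNA array. FAD3A clone AI960953 was lowered by both agents, with −1.94 and −1.71 under AZC and −0.97 and −0.58 under TUN (difference −1.04, standard error 0.20, limma adjusted p = 0.0446). It stood 3.54-fold below water under AZC and 1.71-fold below DMSO under TUN. The stearoyl-ACP desaturase ACPD, which introduces the first double bond, had −1.0 and −0.61 under AZC (clone AW509087) and −0.02 and 0.05 under TUN. Its difference of −0.82 (standard error 0.18) missed the threshold (limma adjusted p = 0.101). The AZC replicates lay below the TUN replicates in these 4 clones, of which 3 were picked for their call, as they did in 18.6% of all clones.

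Not every clone of the pathway shared this. Of the 9 clones tested on the list for fatty acid synthesis and desaturation, 3 were called as lower under AZC, beside the 0.962% of all clones, and 0 as higher, with a median difference of −0.17 against 0.03 over all clones. AZC lowered 4 of the 9 (4.05% over all clones) and TUN 1 (3.37% over all clones). The 9 include more than 1 clone each of FAD2-3, FAD3A and ACPD, so they are not 9 separate genes. The second FAD3A clone, AW318139, differed by −0.14 and the second ACPD clone, AI941223, by −0.04, neither called. The seed-type desaturase clone FAD2-1 AW460032 differed by 0.03, the ketoacyl synthase KASI by −0.17 and the biotin carrier ACCB-2 by −0.14, and none of these was called. The 3 desaturase calls rested on all 4 replicates. Leaving out any 1 replicate ended them, with adjusted p from 0.118 to 0.318 for AW100780, from 0.0622 to 0.209 for AW471558 and from 0.0515 to 0.343 for AI960953. The differences without a replicate stayed negative, from −0.98 to −0.88, from −0.90 to −0.78 and from −1.24 to −0.85 for the same clones.

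**Figure D3:**
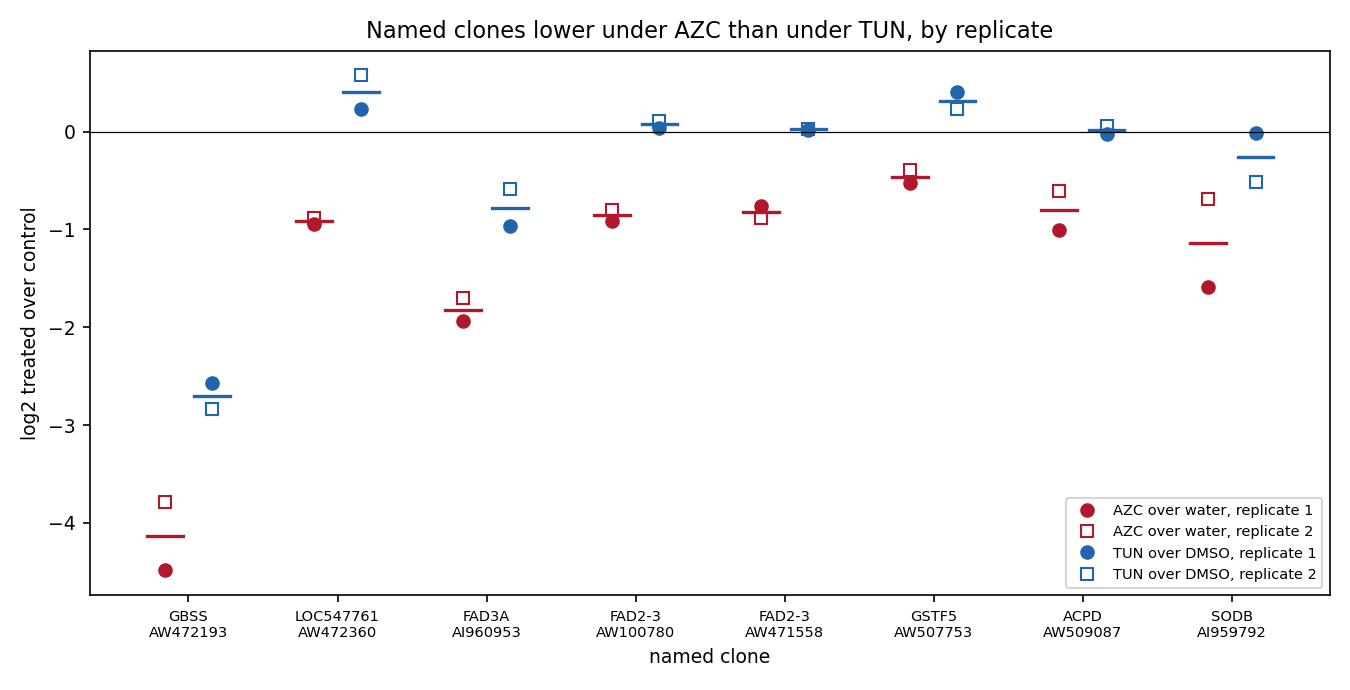
Log2 ratio of treated over control (vertical axis) in each biological replicate for the 6 named clones called as lower under AZC than under TUN and for ACPD AW509087 and SODB AI959792, which were not called. Red symbols are AZC over water and blue symbols TUN over DMSO, filled for replicate 1 and open for replicate 2, and short lines are means; no AZC symbol reaches the TUN symbols of the same clone.

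Of 6 tested clones of starch and sugar metabolism, 4 fell under AZC (4.05% over all clones) and 5 under TUN (3.37% over all clones). Several of the 6 are clones of granule-bound starch synthase and are not independent. For the difference 1 was called as lower (0.962% over all clones), and the median difference was −0.10, against 0.03 over all clones. Granule-bound starch synthase, which makes amylose, had log2 ratios of −4.48 and −3.79 in the AZC replicates (LOC100037476 clone AW472193) and of −2.57 and −2.83 in the TUN replicates. It was thus 17.6-fold below water under AZC and 6.51-fold below DMSO under TUN, and the difference was −1.43 (standard error 0.27, limma adjusted p = 0.0391). The call was lost without AZC replicate 1, TUN replicate 1 or TUN replicate 2, with adjusted p up to 0.261 and differences from −1.78 to −1.09 over the 4 omissions. Neither of the other tested clones of the gene was called for the difference. Clone AI940891 had −1.02 and −0.64 under AZC and −0.72 and −0.46 under TUN (difference −0.24, limma adjusted p = 0.74). Clone AW508018 had −1.35 and −0.87 under AZC and −1.62 and −0.67 under TUN (difference 0.04, limma adjusted p = 0.982). Clone AW472190, which lacked a value in 1 orientation of TUN replicate 2, was at −3.50 to −2.64 over the AZC hybridizations and at −2.52 to −2.25 over the 3 TUN hybridizations it had, so that it too lay lower under AZC without overlap.

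The photosystem II chlorophyll a/b-binding protein (LOC547819 clone AW472492), which gathers light for photosynthesis, had −4.44 and −5.47 under AZC. Under TUN its replicates were far apart, at −1.92 and −4.80. The difference of −1.60 was the largest negative one among the named clones but had a standard error of 0.74 and an adjusted p of 0.535 in limma. Without TUN replicate 2 it was −3.04 and without TUN replicate 1 it was −0.16, so the result depended on which TUN replicate was kept. Among clones without a symbol, the photosystem I match at spot 5547 was called as lower, and so was spot 2906. Spot 2906 was 9.03-fold below water and 2.93-fold below DMSO (difference −1.62, limma adjusted p = 0.00777). These folds are close to the paper's for a type II chlorophyll a/b-binding protein. The other chlorophyll a/b-binding protein clones that the paper lists as repressed by all treatments matched no call. Myo-inositol phosphate synthase (MIPS AI941146), which starts inositol synthesis, fell under both agents, by 1.20 under AZC and by 0.77 under TUN (difference −0.43, limma adjusted p = 0.501). Beta-amylase (LOC547931 clone AW432893), which releases maltose from starch, had −0.63 and −0.60 under AZC and −1.81 and −0.51 under TUN. Its difference of 0.54 (limma adjusted p = 0.67) turned to −0.11 without TUN replicate 1 and was 1.20 without TUN replicate 2 (limma adjusted p = 0.0152).

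Among antioxidant and detoxifying enzymes 1 clone, GSTF5, was called for the difference. GSTF5, a phi-class glutathione S-transferase that conjugates glutathione to toxic compounds, had −0.52 and −0.40 under AZC and 0.40 and 0.23 under TUN. The difference was −0.78 (standard error 0.15, limma adjusted p = 0.0494), with AZC called as lower and TUN not called (limma adjusted p = 0.152). Leaving out any 1 replicate ended the call, with differences from −0.86 to −0.69 and adjusted p from 0.0646 to 0.385. GSTU41, a tau-class member, rose under both agents on the arrays, with 0.42 and 0.72 under AZC and 1.11 and 1.26 under TUN. Its difference of −0.62 was not called (standard error 0.16, limma adjusted p = 0.143). In the paper's real-time RT-PCR, done on another cultivar, glutathione S-transferase mRNAs were not induced by TUN, so the rise under TUN was seen on the arrays only. The superoxide dismutase SODB, which removes superoxide, fell under AZC, with −1.59 and −0.69, and was at −0.01 and −0.51 under TUN. Its difference of −0.88 was not called (standard error 0.28, limma adjusted p = 0.293). The dehydroascorbate reductase clone DHAR3 AW509423, which regenerates ascorbate, was called as lower under AZC (−0.66) and not under TUN (−0.26), and the difference of −0.40 was not called (limma adjusted p = 0.474). Over the 11 tested clones of antioxidant defence and iron storage, 1 was lower for the difference (0.962% over all clones) and 0 were higher (0.618% over all clones), and the median difference was −0.03, against 0.03 over all clones.

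LOC547761, which the annotation used here leaves without a description, gave the smallest adjusted p of the named clones. Clone AW472360 had −0.94 and −0.89 under AZC and 0.23 and 0.57 under TUN, with no overlap (difference −1.32, standard error 0.16, limma adjusted p = 0.00512). AZC placed it 1.88-fold below water, and TUN 1.32-fold above DMSO, a value not called on its own (limma adjusted p = 0.0794). Without AZC replicate 1 the difference was −1.29 and the adjusted p 0.0602, and leaving out each of the other replicates kept the call. The second clone of that gene, AW132167, had a difference of 0.18 (limma adjusted p = 0.75).

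The ER chaperones, the hallmark of the response that both agents are used to evoke, rose under both agents in 5 of 6 tested clones (3.46% of all clones under AZC and 3.96% under TUN), and 0 of the 6 were called for the difference (1.58% of all clones). BiP is the luminal Hsp70 that holds unfolded chains and keeps the stress sensors silent, and calnexin is the membrane lectin that retains glycoproteins until they fold. The arrayed calnexin clone AW508066, one of those with the largest responses, is shown by its first 300 bases as the study lists them, with capitals on the 18-base stretches that encode 2 of the tryptophan-containing repeats of calnexin's P domain.
calnexin AW508066: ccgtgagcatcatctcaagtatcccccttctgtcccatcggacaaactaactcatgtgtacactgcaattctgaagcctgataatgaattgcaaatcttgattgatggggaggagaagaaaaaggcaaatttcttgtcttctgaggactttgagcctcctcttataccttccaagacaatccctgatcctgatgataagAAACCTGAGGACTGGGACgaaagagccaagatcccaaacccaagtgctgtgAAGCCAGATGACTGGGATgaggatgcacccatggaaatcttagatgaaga

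Calnexin AW508066 had log2 ratios of 4.17 and 3.65 in the AZC replicates and of 4.73 and 4.29 in the TUN replicates, 15.0-fold over water under AZC and 22.8-fold over DMSO under TUN. The replicate values did not overlap, but the difference of −0.60 (95% interval −1.10 to −0.10) was not called (limma adjusted p = 0.393). In ratios recomputed from the scanner intensities with normexp correction it was 0.02, so its direction depended on the processing. Calnexin clone AW397007 had 2.91 and 2.77 under AZC and 4.44 and 3.50 under TUN, and its difference of −1.13 (95% interval −1.75 to −0.52) was not called (limma adjusted p = 0.113). Without TUN replicate 2 it was −1.60, and without TUN replicate 1 it was −0.66. BIP4 clone AW507892 had 4.49 and 4.26 under AZC and 5.42 and 4.34 under TUN, a difference of −0.50 (95% interval −1.17 to 0.17, limma adjusted p = 0.641). It was −1.04 without TUN replicate 2 (limma adjusted p = 0.0308) and 0.04 without TUN replicate 1. BiP isoform D (LOC547838 clone AW509482) had 4.79 and 5.16 under AZC and 5.64 and 4.79 under TUN, with overlapping replicates and a difference of −0.24 (95% interval −0.83 to 0.34, limma adjusted p = 0.832).

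The other tested chaperone clones with a symbol were weaker. Calnexin clone AI748065 rose under both agents, by 0.83 under AZC and by 0.96 under TUN, and clone AW102562 of the same gene was called under neither, at 0.04 under AZC and 0.06 under TUN. BIP4 clone AW471814 lacked 1 orientation of TUN replicate 2 and was not tested. It was at 4.47 to 5.41 over the AZC hybridizations and at 2.98 to 5.89 over the 3 TUN hybridizations it had. PDIS-2, a protein disulfide isomerase that forms disulfide bonds in the ER, was not tested either. The median difference over the 6 tested clones was −0.37, against 0.03 over all clones.

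**Figure D4:**
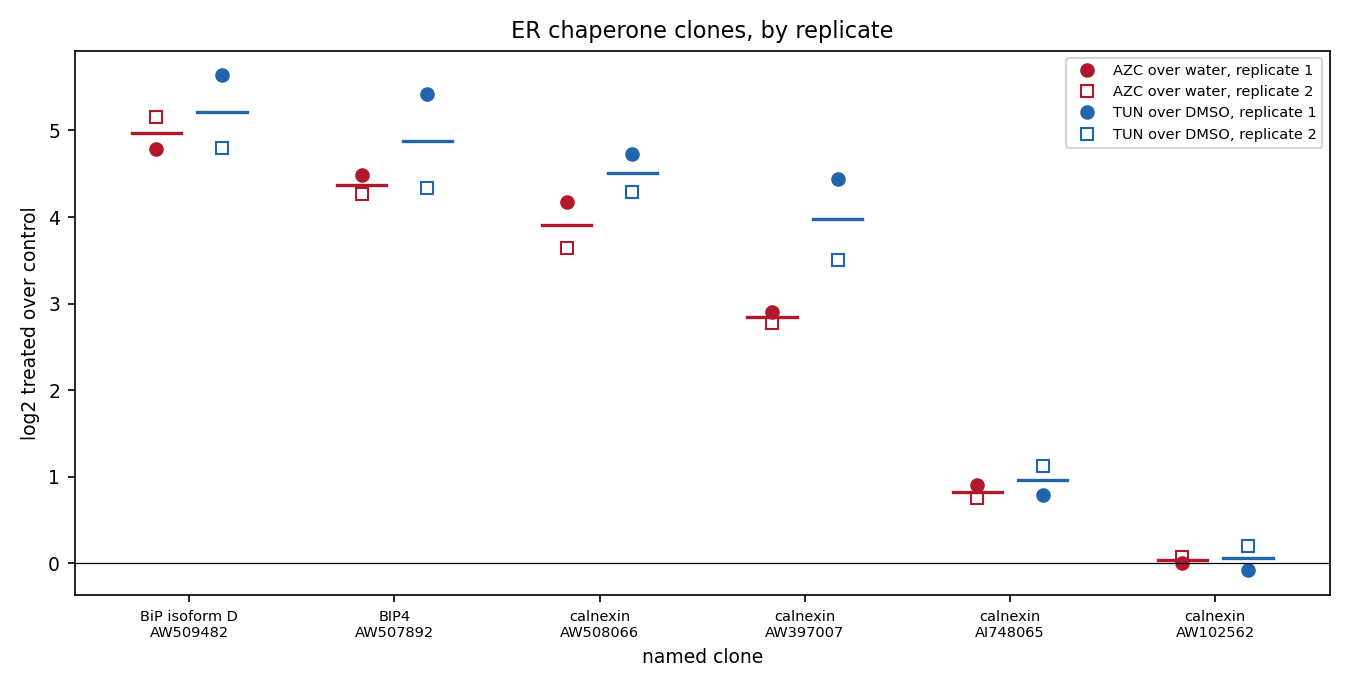
Log2 ratio of treated over control (vertical axis) in each biological replicate for the 6 tested ER chaperone clones with a gene symbol. Red symbols are AZC over water and blue symbols TUN over DMSO, filled for replicate 1 and open for replicate 2, and short lines are means; all but calnexin AW102562 lie well above 0 in every replicate, and TUN replicate 1 is the highest value of the 4 in the BiP isoform D, BIP4, AW508066 and AW397007 clones.

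Proteolysis and defence transcripts gave differences that did not pass the test. PAA1, a subunit of the 20S proteasome that degrades ubiquitinated proteins, had −0.16 and −0.18 under AZC and 0.99 and 0.39 under TUN. TUN raised it (limma adjusted p = 0.0191) and AZC did not change it detectably (limma adjusted p = 0.636), but the difference of −0.86 was not called (standard error 0.20, limma adjusted p = 0.107). Without TUN replicate 2 the difference was −1.15, and without TUN replicate 1 it was −0.56. Lipoxygenase LOX1.1 clone AW508203, which oxidizes polyunsaturated fatty acids, rose under both agents, to 3.56-fold over water under AZC and 6.16-fold over DMSO under TUN. Among the 9 tested wound and defence clones it was the only one called as raised under AZC (3.46% over all clones) or TUN (3.96% over all clones). Its replicates were 2.03 and 1.63 under AZC and 2.59 and 2.66 under TUN, without overlap, and the difference of −0.79 fell just short of a call (standard error 0.17, limma adjusted p = 0.062). The vacuolar processing enzyme VPE2, a protease of the vacuole, had −0.14 and −0.41 under AZC and −1.50 and −0.77 under TUN. TUN lowered it (limma adjusted p = 0.00613), and the difference of 0.85, the largest positive one among the named clones, was not called (standard error 0.26, limma adjusted p = 0.263). Of the 7 tested protease clones 0 were called for the difference, and likewise 0 of the 9 tested wound and defence clones (1.58% over all clones).

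The other named clones with higher values under AZC were also not called. The nitrate transporter NRT1-3 (clone AW278825) had 0.23 and −0.06 under AZC and −1.01 and −0.31 under TUN (difference 0.75, limma adjusted p = 0.345). The metallothionein MT2, a small metal-binding protein, had 0.43 and 0.25 under AZC (clone AW396976) and −0.45 and −0.34 under TUN, with no overlap (difference 0.74, limma adjusted p = 0.101). Its second clone, AI794960, differed by 0.34. The transcription factor NAC3, of a family tied to stress and senescence, rose under AZC, with 0.74 and 1.27, and was at 0.21 and 0.49 under TUN without a call (difference 0.65, limma adjusted p = 0.349). WRKY33, a defence-related transcription factor, rose under AZC, with 0.93 and 0.62, and was at 0.71 and 0.01 under TUN without a call (difference 0.42, limma adjusted p = 0.641). The remaining clones among the 10 highest, LOC547972, the seed maturation protein PM41, the phospholipase C LOC547865 and LOX2, differed by 0.45 to 0.41, with adjusted p from 0.424 to 0.584. Among 15 tested transcription factor clones, AZC raised 2 and lowered 1 (3.46% and 4.05% over all clones), and TUN raised 0 and lowered 1 (3.96% and 3.37% over all clones). None was called for the difference (1.58% over all clones). LHY, a component of the circadian clock, had −0.37 and −0.14 under AZC and −0.12 and −0.36 under TUN (difference −0.02, limma adjusted p = 0.98).

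GS-2, SHOOT1 and F3H fell under both agents, and their differences were not called. Glutamine synthetase GS-2 clone AI736144, which assimilates ammonium, had −0.91 and −1.36 under AZC and −0.92 and −1.31 under TUN, and its difference was −0.02 (95% interval −0.51 to 0.47). SHOOT1 (AW101186) had −0.58 and −0.57 under AZC and −0.65 and −0.83 under TUN (difference 0.16, 95% interval −0.17 to 0.50). The flavanone 3-hydroxylase F3H, an enzyme of flavonoid synthesis, fell by 1.31 under AZC and by 0.95 under TUN (difference −0.36, 95% interval −0.98 to 0.26). The urease accessory protein clone EU3 AW568823 and the MYB factor MYBZ2 were called as lower under AZC and not under TUN, with differences of −0.38 and −0.30 that were not called. BZIP21, a bZIP factor, was called as lower under TUN and not under AZC, with a difference of 0.13. Of the other lists, LEA proteins and dehydrins (7 tested), phenylpropanoids and flavonoids (10), nitrogen and sulfur assimilation (9), signalling proteins (7) and hormone response and growth (4) had 0 clones called for the difference, with median differences between −0.02 and 0.16. Over all clones 1.58% were called, so lists this short would seldom hold a call.

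**Figure D5:**
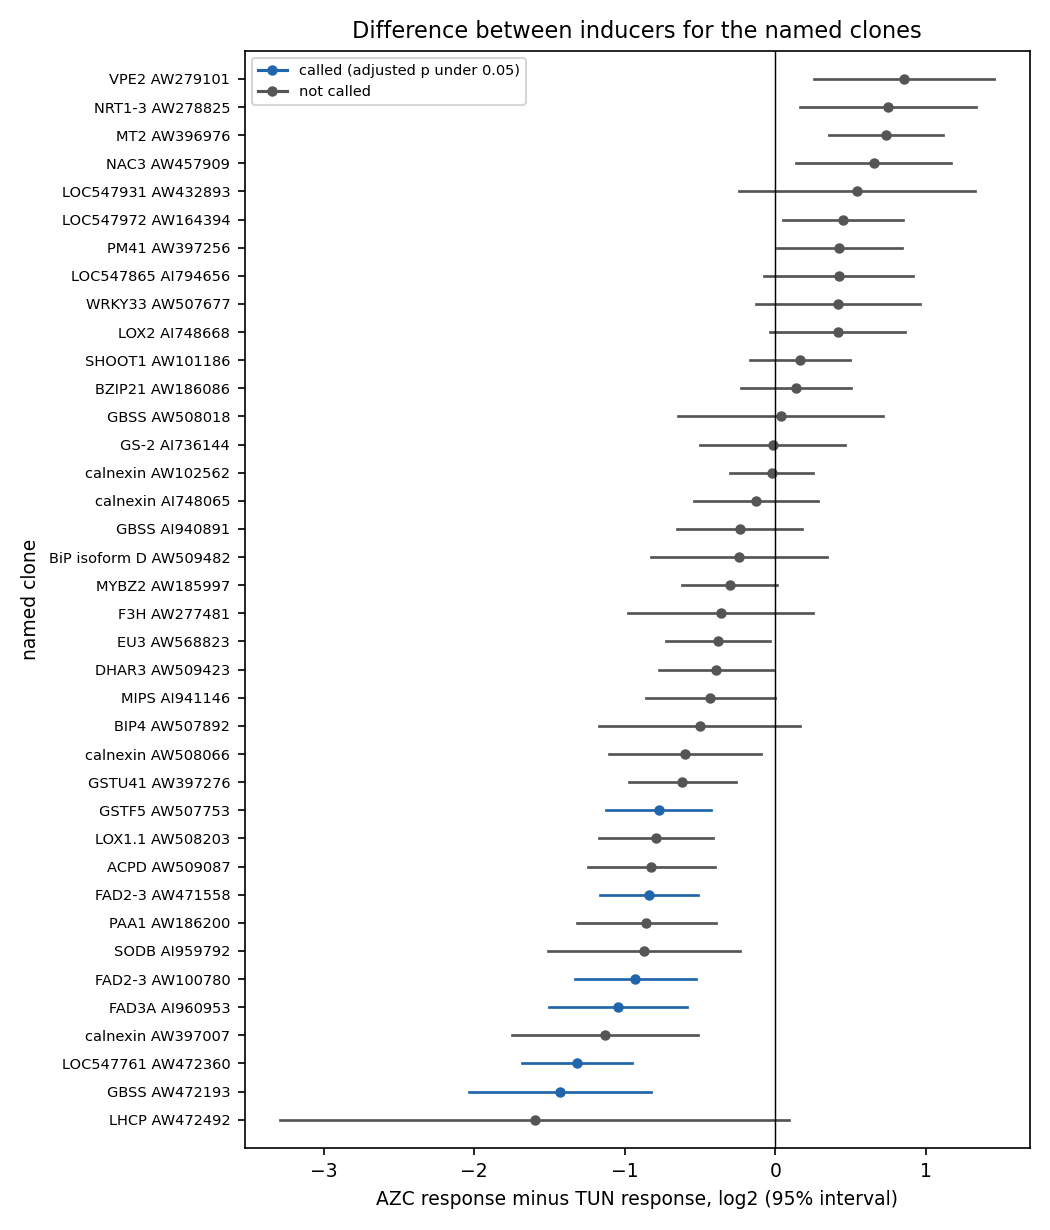
AZC response minus TUN response on the log2 scale (horizontal axis) with its 95% interval for the 38 clones named by rule (vertical axis), GBSS being granule-bound starch synthase and LHCP the chlorophyll a/b-binding protein. Blue marks the 6 clones called at an adjusted p under 0.05, all on the negative side, and grey the rest; the intervals are not adjusted for the number of clones.

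The 4 hybridizations with the treated RNA in Cy3 were quantified on 1 day, and those with it in Cy5 on 2 others. With the Cy3 orientation alone 94 clones were called for the difference, 63 of them among the 69 above, and with the Cy5 orientation alone 25 were called, 22 of them among the 69. Of the 6 named clones, 3 kept their call in Cy3 alone (AW472360, AI960953 and GSTF5) and 1 in Cy5 alone (AW472193). All 6 kept their direction in either orientation, with differences from −1.60 to −0.91 in Cy3 and from −1.34 to −0.50 in Cy5.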

How the data were processed

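Leaf RNA of AZC-, water-, TUN- and DMSO-treated soybean plants was hybridized to 2-colour cDNA arrays. The deposited table holds log2 ratios of treated over control, which the authors made from background-subtracted intensities normalized by LOWESS within each hybridization. Its scale and direction were settled against the scanner files: for bright spots past 2-fold its values were 0.991 to 1.01 times the scanner log2 ratio (medians), with the sign of the labelled dyes. The deposited scanner files hold mean spot and background intensities and marks whose meaning is not given in the sources used here. The paper's methods name QuantArray and the file headers ScanArray Express. The authors' LOWESS step centres each array, so a shift of all transcripts would not be seen. The number of arrays limits the precision.

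Dye-swap pairs were averaged to 1 value per biological replicate, both orientations being required. A linear model in limma 3.58.1 (R 4.3.3) took all 6 biological replicates of the series, PEG included for the spread, with 1 coefficient per treatment and a variance trend on intensity (prior degrees of freedom 5.71). Of the clones tested, 914 lacked a PEG replicate. P-values were adjusted by Benjamini-Hochberg over 4368 clones, with a threshold of 0.05. The filter (foreground above background plus 2 SD on 3 of 4 hybridizations in an RNA group) removed 0 clones. For PEG replicate 1 each scanner file was assigned to the other hybridization, since it correlated with that column of the table. They entered only the intensity trend and the scanner alternatives.

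Doses and times come from the paper's methods. Of 253 spots with 1 gene symbol, 64 were not tested, since an orientation had no value. Clones were named if they had 1 symbol and were called for the difference, were among the 10 highest or 10 lowest differences, belonged to ER chaperones and folding, or belonged to another list and were called under AZC, TUN or the difference. Other clones of a named gene, FAD2-1, KASI, ACCB-2, PDIS-2, LHY and MDH-1 were named after their values had been seen. Descriptions are the study's own or follow from the symbol. Spots 4273, 5547, 2906, 1580 and 4244 have no symbol and were given an identity after their values had been seen. Their folds under both agents matched, or nearly matched, those of a clone the paper lists, so these identities are inferred. The other calls without a symbol were not described in this way. The comparison, members and lists were chosen with earlier results of these data known, and the lists were completed by hand from the probe names. None of the 38 named clones reached a mean intensity of 65000.

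On simulated data of 4368 clones for the difference between AZC and TUN, log2 differences of 2 and of 1 were recovered in 100% of clones. Differences of 0.5 were recovered in 44.8%, and 6.86% of the calls were false. The simulated spread of each clone was drawn towards the median spread, so these rates do not hold for clones with a wide spread. The alternatives were other background corrections and normalizations, filters, variance models, a replicate block, single dye orientations, leaving out each replicate, the methods' t-test with its fold limits and, chosen after seeing the data, accepting 1 dye orientation.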

Additional observations from a re-analysis of the deposited data

Results flagged for a closer look

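Among the named clones called for the difference, 4 had negative log2 ratios in both AZC replicates and positive ones in both TUN replicates, and the difference was tested in limma. LOC547761 AW472360 differed by −1.32 and ran from −1.03 to −0.80 over the AZC hybridizations and from −0.04 to 0.88 over the TUN hybridizations. FAD2-3 AW100780 differed by −0.93, with −0.93 to −0.68 under AZC and −0.14 to 0.36 under TUN. FAD2-3 AW471558 differed by −0.84, with −1.19 to −0.57 under AZC and −0.23 to 0.28 under TUN. GSTF5 AW507753 differed by −0.78, with −0.76 to −0.29 under AZC and 0.10 to 0.63 under TUN. The clones were picked for a call and for opposite signs, so that their replicates could not overlap. Over all clones the AZC replicates lay below the TUN replicates in 18.6%. TUN gave none of the 4 clones a call of its own.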

How the results depend on the processing

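With 27 clones higher and 42 lower for AZC minus TUN, the counts moved by over 1.5 times under these settings. Plain subtraction of scanner backgrounds gave 17 lower, and normexp with median centring 99 lower, with 800 raised and 549 lowered under AZC. Scale normalization of the replicates gave 15 higher and 12 lower, and a fit on AZC and TUN alone 21 lower. All hybridizations with a dye term and random block gave 45 higher and 95 lower, with 235 lowered under TUN. Treated RNA in Cy5 alone gave 7 lower, with 87 raised under AZC and 113 raised under TUN. The methods' t-test with its fold limits, after Benjamini-Hochberg adjustment, called 30 raised and 58 lowered clones under AZC, and 0 and 0 under TUN, where its unadjusted counts were 136 and 113. It was not run on the difference. Leaving out 1 replicate gave 18 to 25 higher and 12 to 62 lower for the difference, 63 to 161 raised and 74 to 184 lowered for AZC, and 82 to 162 raised and 85 to 127 lowered for TUN. The lone replicate was then assumed to vary like the other groups. The cause of these shifts was not tested. Scanner intensities with normexp and loess gave 26 higher and 55 lower, with 65 of the 69 clones shared, all in the same direction. Both the filter and the stricter one removed 0 clones, so these alternatives tested nothing.

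Deviations of same-numbered AZC and TUN replicates correlated at r = 0.141, and those of PEG with either below 0 (−0.0849 and −0.0495), so the numbers were not taken as pairs. With a replicate block 36 clones were higher and 57 lower. Calnexin AW397007 was then called (adjusted p = 0.021).

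Over 38 named clones and 19 alternatives, 630 values kept direction and call, 45 lost a call, 18 gained one and 28 changed sign, the last all in clones not called. Most of the 630 were clones that stayed without a call, and the filter alternatives could only repeat the main values. All 45 losses fell on the 6 called clones, which kept their call in 9 (FAD3A) to 17 (AW472360) of the 19 alternatives. The 6 called clones kept their sign throughout, with adjusted p up to 0.318 (AW100780), 0.356 (FAD3A), 0.261 (AW472193), 0.365 (AW471558), 0.104 (AW472360) and 0.805 (GSTF5). Sign changes under median centring were 0.0297 (AW102562), 0.13 (BiP isoform D), 0.0766 (GS-2), −0.0713 (BZIP21) and −0.35 (AW508018). Under normexp with loess they were 0.11 (BiP isoform D), 0.02 (AW508066) and −0.17 (AW508018), and under plain subtraction −0.0123 (AW508018). Under scale normalization they were 0.22 (BiP isoform D) and −0.11 (AW508018). In Cy3 alone they were 0.0237 (AW102562) and 0.0646 (AI748065), and in Cy5 alone 0.00995 (GS-2), −0.0562 (AW508018), −0.0947 (SHOOT1) and 0.0941 (AI940891). Leaving out 1 replicate gave −0.11 to 1.20 for LOC547931, −0.17 to 0.12 for AW102562, −1.04 to 0.0365 for BIP4, −0.66 to 0.18 for BiP isoform D, −0.30 to 0.0377 for AI748065, −0.24 to 0.21 for GS-2, −0.44 to 0.51 for AW508018 and −0.82 to 0.0903 for F3H. With 2 replicates per treatment, log2 differences of 0.5 were recovered in 44.8% of clones in the simulation, and those of 1 in 100%. The simulated spreads were drawn towards the median spread, so a clone without a call can still differ by more than 1. The chlorophyll a/b-binding protein clone, at −1.60 in the data, was not called.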

Other observations

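The malate dehydrogenase clone MDH-1 AW309182, not tested because 1 TUN orientation had no value, had log2 ratios from −0.62 to −0.14 over the 4 AZC hybridizations and from 0.64 to 1.18 over the 3 TUN hybridizations. Accepting 1 orientation, a choice made after seeing the data, its difference was −1.36 (limma adjusted p = 0.0304).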
